A study of Mus musculus with 2 samples.

Results

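Cytosolic ribosomal protein genes were described here in 2 single-cell RNA libraries of CD11b+ cells from the mouse cochlea. The genes were chosen by name alone, as every gene symbol made of Rpl or Rps and a number, with at most 1 trailing a, x or l, plus Rplp0, Rplp1 and Rplp2. Pseudogene symbols were left out. The rule found 81 of the 48709 mouse genes in the files, 50 of the large ribosomal subunit and 31 of the small subunit. Rpsa, Rps3a1 and Fau encode ribosomal proteins too, but their symbols do not have this form, so they were kept apart.

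The cytosolic ribosome is built of a small subunit, which reads the mRNA, and a large subunit, which joins the amino acids. Each subunit holds ribosomal RNA and many small proteins, nearly all made from genes that are active in every nucleated cell. Growing and dividing cells make many new ribosomes. A neutrophil divides and fills its granules in the bone marrow at the promyelocyte and myelocyte stages, then leaves the cell cycle and matures into a short-lived cell. Ribosomal protein genes have left many processed pseudogenes in the mouse genome, which copy the mRNA's sequence.

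The implanted library came from cochleae that carried an electrode array, and the non-implanted library from cochleae without one, both taken 33 days after implantation. All mice were of the strain C57BL/6J/B6 with the genotype CX3CR1+/GFP Thy1+/YFP, which carries fluorescent reporters, and both sexes were pooled. The series' design text names the other cochlea of implanted mice as the comparison, while the labels say only non-implanted. The labels do not give the number of pooled animals or the kind of array, although the series' title names both standard arrays and arrays that release dexamethasone. The labels' extraction protocol describes stria vascularis of newborn and older mice, which differs from the design text. With 1 library in each group nothing measures the spread between animals, so no difference below has a test, and every interval covers counting error only.

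After filtering, 3065 implanted and 3411 non-implanted cells remained, with a median of 4237 and 4144 unique molecular identifiers (UMIs, each a tag for 1 captured RNA molecule) per cell. The libraries shared 6 cell barcodes. CD11b itself is encoded by Itgam, which had 133 and 162 UMIs in the implanted and non-implanted library. The leukocyte gene Ptprc had at least 1 UMI in 90.1% of implanted and 93.1% of non-implanted cells. Cells were clustered without the 81 genes and named by marker genes, so the counts of these genes did not enter the clustering. Copies of them under other symbols were not left out, so ribosomal protein sequence could still have shaped the clusters. Of the 24 clusters, 2 stayed unnamed.

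Ribosomal protein genes gave 632901 UMIs. This was 1.70% of all UMIs in the implanted library (95% Clopper-Pearson interval 1.69 to 1.70) and 1.57% in the non-implanted library (1.56 to 1.57). The UMIs were spread very unevenly over the members. Of the 81 genes, 25 had at least 10000 UMIs, 65 had at least 200, 13 had fewer than 200 but at least 1, and 3 had none. The libraries count RNA 3′ ends, at 1 UMI a molecule, so levels are given as UMIs in every 1e6 UMIs (CPM) and are not divided by gene length.

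The 4 highest members were Rpl41, Rpl32, Rps9 and Rps3, which together held 26.4% of the ribosomal protein UMIs. Rpl41, the smallest protein of the large subunit, stood at 1499 CPM in the implanted library against 1269 CPM in the non-implanted library. Rpl32, also of the large subunit, stood at 1133 and 927 CPM. Rps3, a small subunit protein near the mRNA entry channel, was higher in the implanted library as well, at 1003 and 885 CPM. Rps9, a small subunit protein, went the other way, with 823 CPM implanted and 1083 CPM non-implanted.

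Among members that reached 200 UMIs the 5 lowest were Rps23, Rpl36, Rpl31, Rpl17 and Rpl10, between 263 and 297 UMIs each. Rpl13, Rpl24 and Rpl10l had no UMI in either library, and 3 counts as the limit for a count of 0 allow up to 0.162 CPM in the implanted library against 0.147 CPM in the non-implanted library. Rpl13 and Rpl24 are general components of the large subunit, and Rpl10l is a testis form of Rpl10. Their copies elsewhere in the annotation had 7535 UMIs for Rpl24 and 191 for Rpl13.

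The levels went with the sequence a gene shares with others. For each member, every stretch of 91 bases from 300 bases before to 100 bases after the stop codon was looked up in all other annotated transcripts. Of the 16 members with under 10% of these windows shared, the median was 14519 UMIs. The 17 members with 10% to 50% shared had a median of 14560 UMIs. The 25 members with 50% to 80% shared had a median of 1413 UMIs, and the 23 members with 80% or more had 191 UMIs. Over the 81 members, the Spearman correlation between windows shared and UMIs was -0.64, a description across genes that share libraries and pipeline. The part of shared sequence in the counts was not tested.

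**Figure D1:**
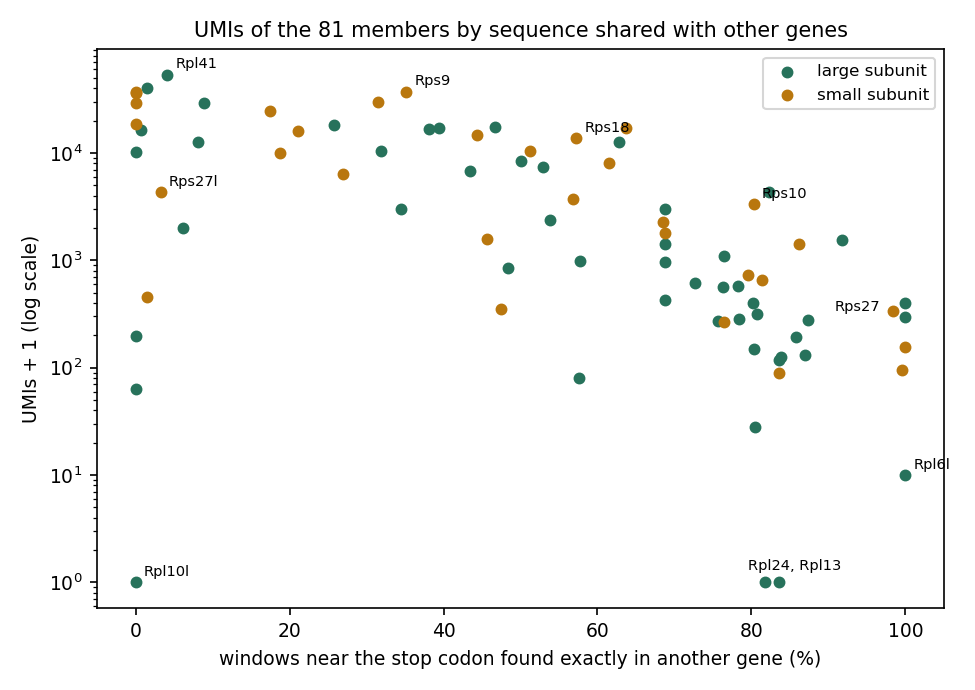
UMIs plus 1 of each of the 81 members in both libraries together (log scale) against the share of 91-base windows near its stop codon found exactly in another annotated gene. Members with few shared windows sit mostly above 10000 UMIs, with the paralogs Rpl10l, Rpl3l, Rpl39l and Rps4l as the low points on the left, and those above 80% sit mostly below 1000.

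Counts of the copies are given beside those of the members. A total of 263 other genes held at least 50% of the coding 31-base words of a member, covering 67 of the 81 members, and these copies had 345455 UMIs. Gm9794, a processed pseudogene like Rpl23, had 35303 UMIs beside 17137 for Rpl23. Rps16-ps2 had 28402 UMIs beside 1802 for Rps16, whose protein is part of the small subunit head. Wdr89, a coding gene that shares 80.3% of the Rplp2 words, had 23516 UMIs beside 7420 for Rplp2, a protein of the ribosomal stalk. Rpl10a-ps1 had 12465 UMIs beside 131 for Rpl10a. For these members the counts in the files could not be divided between gene and copy.

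The Rps27 family is shown as an example of identical and of diverged sequence. Rps27 on chromosome 3 (90212522 to 90213651, GRCm38, minus strand) and Rps27rt on chromosome 9 (114982366 to 114982739, minus strand) have the same coding sequence of 252 bases, with 0 differences. Rps27l on chromosome 9 (66946086 to 66949516, plus strand) is a paralog whose coding sequence has the same length and differs from Rps27 at 60 bases. The last 120 coding bases, nearest to the counted 3′ end, are shown from the GENCODE transcripts 5′ to 3′ without the stop codon, with the 28 bases of Rps27l that differ from Rps27 in capitals.
Rps27: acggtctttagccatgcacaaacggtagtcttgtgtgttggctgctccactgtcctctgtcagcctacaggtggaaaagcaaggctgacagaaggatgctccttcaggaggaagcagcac
Rps27rt: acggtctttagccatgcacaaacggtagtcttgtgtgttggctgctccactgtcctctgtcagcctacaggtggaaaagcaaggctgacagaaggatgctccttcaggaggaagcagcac
Rps27l: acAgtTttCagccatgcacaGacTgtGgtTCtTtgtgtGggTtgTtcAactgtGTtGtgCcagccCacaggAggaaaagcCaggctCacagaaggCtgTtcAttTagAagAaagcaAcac
Rps27, with 98.4% of its windows shared, had 336 UMIs, and the identical Rps27rt had 15311. Rps27l, with 3.23% shared, had 4296 UMIs, at 121 CPM in the implanted library against 101 CPM in the non-implanted library.

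The other paralog members were low. Rpl3l, the muscle form of Rpl3, had 195 UMIs, against 575 for Rpl3, which forms part of the large subunit core. Rpl39l, a form best known from testis, had 62 UMIs, against 1998 for Rpl39. Rps4l had 454 UMIs, against 29765 for Rps4x, the X-linked small subunit protein. Rpl6l had 9 UMIs, against 953 for Rpl6. Rpl39l stood at 15.6 CPM in the macrophage-like cells of the implanted library, the highest of its class levels, and had no UMI in those of the non-implanted library.

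Across cell types, the share of UMIs from ribosomal protein genes was lowest in maturing neutrophils and several times higher in most other classes. Among classes with at least 100 cells in a library, monocyte-like cells were highest, at 3.51% (3.48 to 3.54) in the implanted library against 3.75% (3.72 to 3.78) in the non-implanted library. Mature neutrophil-like cells were lowest, at 0.453% (0.444 to 0.463) and 0.495% (0.486 to 0.503). The ratio of these extremes was 7.74 (7.56 to 7.92) in the implanted library against 7.58 (7.44 to 7.72) in the non-implanted library. Macrophage-like cells lay between, at 2.32% and 2.34%.

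Several smaller classes reached higher shares, but fibroblast-like cells, 17 implanted and 10 non-implanted, had only 1.57% and 1.81%. Osteoclast-like cells, 11 implanted and 28 non-implanted, had 5.55% and 5.93%. B cell-like cells had 3.85% and 4.62%, and dendritic cell-like cells 4.15% and 4.51%. Erythroid-like cells had 4.06% and 4.53% in pooled UMIs, but their median cell had only 1.24% and 2.07%, and the pooled value gives more weight to cells with many UMIs. Rpl41 was the leading or second member by UMIs in most classes, at 10.6% of ribosomal protein UMIs in erythroid-like cells of the implanted library and 7.73% in monocyte-like cells.

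**Figure D2:**
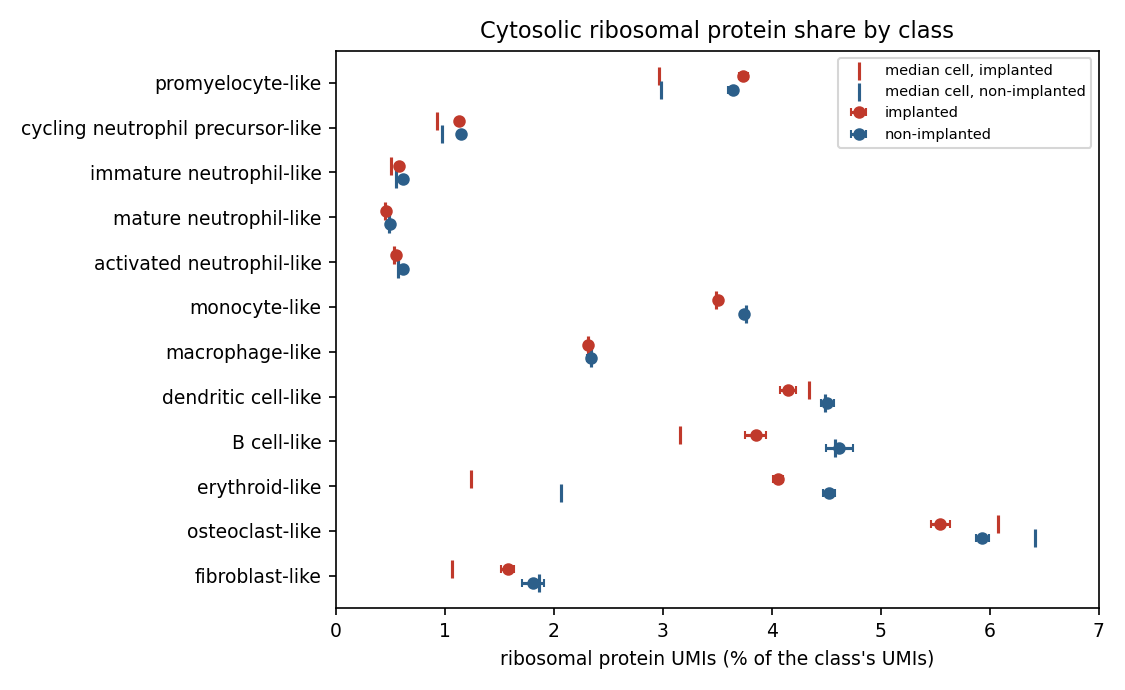
Share of UMIs from the 81 genes in each named class (x axis, percent of the class's UMIs) for the implanted and the non-implanted library. Points are pooled shares with 95% counting intervals and vertical ticks are the median cell; the mature and immature neutrophil-like cells lie near 0.5% and the monocyte-like cells near 3.5% in both libraries.

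Within the neutrophil lineage the share was highest in promyelocyte-like cells, which are large cells making primary granules. They had 3.74% in the implanted (62 cells) and 3.64% in the non-implanted library (43 cells). Cycling precursor-like cells had 1.13% and 1.14%, and immature neutrophil-like cells, which carry secondary granule genes such as Ltf and Camp, had 0.578% and 0.615%. Mature cells had the lowest values, given above, and activated neutrophil-like cells had 0.547% and 0.616%. The median cell gave the same order from promyelocyte to mature, at 2.96%, 0.928%, 0.507% and 0.445% in the implanted library and 2.98%, 0.974%, 0.551% and 0.490% in the non-implanted library.

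Other measures moved with the stage. The median depth was 15262 UMIs in implanted promyelocyte-like cells, 5102 in immature and 2820 in mature cells, and the non-implanted library had 14542, 5736 and 2820. S100a8 and S100a9, which encode the main cytosolic proteins of neutrophils, took 20.7% of UMIs in implanted promyelocyte-like cells, 32.5% in immature and 22.4% in mature cells. The non-implanted values were 21.97%, 33.1% and 22.7%. A share of UMIs falls when other genes rise, and fewer ribosomal protein molecules cannot be told apart from more of other RNA by the share alone. The number of ribosomal protein UMIs in the median cell was 484 in implanted promyelocyte-like cells, 26 in immature and 12 in mature cells, with 515, 30 and 14 in the non-implanted library. Without the 20 most abundant other genes in the total, S100a8 and S100a9 among them, the log2 ratio of the mature to the immature share was -0.75 implanted and -0.74 non-implanted. With every cell thinned to 1000 UMIs it was -0.22 and -0.12, beside -0.35 and -0.32 in all UMIs. Thinning also gives cells equal weight and leaves out those under 1000 UMIs, so it does not show the part of depth alone. With equal cell weights and no thinning, immature and mature shares were 0.544% and 0.476% in the implanted library. They were 0.582% and 0.525% in the non-implanted library.

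A score of late minus early neutrophil genes ordered the cells of the neutrophil-lineage classes. The clusters set which cells were ordered but not their order, and many score genes are also markers that named the classes. In decile 1, the least mature cells, the pooled share was 1.61% implanted and 1.46% non-implanted. In decile 6 it was 0.420% and 0.430%. From there it was higher again, reaching 0.594% and 0.677% in decile 10. Both libraries had their low point in decile 6, for pooled shares and for median cells (0.404% and 0.420%). Decile 4 of the implanted library stood apart at 1.02%, with a median cell of 0.496%. It held 7 promyelocyte-like cells, and without these its share was 0.530%.

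**Figure D3:**
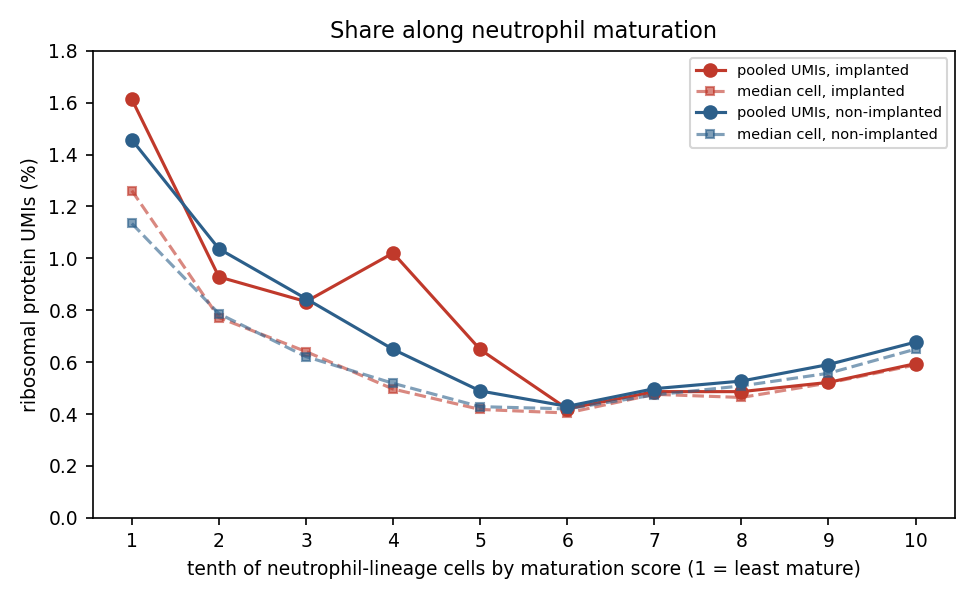
Share of UMIs from the 81 genes (y axis, percent) in 10 groups (deciles) of neutrophil-lineage cells ordered by a maturation score (x axis, 1 is least mature), per library, as pooled UMIs and as the median cell. Both libraries run from 1.61% and 1.46% to 0.420% and 0.430% in decile 6 and end at 0.594% and 0.677%; the pooled implanted value of decile 4 is 1.02% with 7 promyelocyte-like cells in it.

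The largest step by member lay between promyelocyte-like and cycling cells. Members and all other genes were compared as the log2 ratio of CPM plus 5, where the 2 groups of cells together had at least 200 UMIs. In the implanted library 38 of the 39 members that could be compared were at least 2-fold lower in cycling cells, against 8.96% of all genes, and in the non-implanted library 41 of 42 were, against 7.17%. The exception in both was Rps9, at 1016 CPM in promyelocyte-like and 559 CPM in cycling cells of the implanted library (log2 -0.86). From cycling to immature cells, 21 of 38 members were at least 2-fold lower in the implanted library, with 14.2% of all genes, and 19 of 43 in the non-implanted library, with 12.8%. No member was 2-fold higher in either step, against 3.22% (implanted) and 3.14% (non-implanted) of all genes from promyelocyte-like to cycling cells and 8.01% and 6.07% from cycling to immature cells.

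Between immature and mature neutrophil-like cells the members diverged. Only 31 members reached 200 UMIs in the implanted library and 37 in the non-implanted library, so the low members are not covered. In the implanted library 6 of 31 were at least 2-fold lower in mature cells, against 11% of all genes, and 7 of 37 in the non-implanted library, against 10.6%. No member was 2-fold higher, against 17.9% and 17.7% of all genes. The counts of lower members moved with the processing, to 1 and 2 with cells thinned to 1000 UMIs and to 16 and 17 without the 20 most abundant other genes in the total. The share of all genes was not counted in those settings. Thinning leaves fewer UMIs to reach the minimum of 200, and leaving genes out of the total changes the ratio of every gene. The median log2 ratio was -0.61 over the implanted members and -0.47 over the non-implanted members, while the median of all genes compared was 0.18 and 0.17. The pooled share had a log2 ratio of -0.35 (-0.39 to -0.31) and -0.32 (-0.34 to -0.29). Of the 31 members covered in both libraries, 25 were below 0 in both, 4 above 0 in both and 2 differed in sign.

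Among members covered in both libraries, those lowest in mature cells were Rpl32, Rps18, Rpl14, Rps4x and Rpl4. Rpl32 had 280 CPM in immature and 97.7 CPM in mature cells of the implanted library (ratio 0.349, interval 0.296 to 0.409) and 292 and 79.0 CPM in the non-implanted library (0.270, 0.234 to 0.311). Rps18, a protein of the small subunit head, had 65.1 and 23.6 CPM in the implanted library and 88.3 and 23.5 CPM in the non-implanted library. These pairs were far apart in both libraries. Rpl14 went from 67.0 to 25.8 CPM and from 62.1 to 24.6 CPM, and Rpl4 from 92.1 to 37.6 and from 86.2 to 39.2 CPM, in the implanted and the non-implanted library. Rps4x had 199.4 and 104 CPM in the implanted library (log2 -0.91), under the 2-fold limit, and 273 and 103 CPM in the non-implanted library (log2 -1.36).

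At the other end, among the 31 members covered in both libraries, were Rps9, Rpl30, Rpl18, Rplp1 and Rpl41. Rpl37, covered in the non-implanted library alone, had 34.2 CPM in immature and 70.8 CPM in mature cells there (log2 0.95), the highest ratio of its 37 members. Rps9 had 509 CPM in immature and 702 CPM in mature cells of the implanted library (ratio 1.38, interval 1.29 to 1.48) and 708 and 1002 CPM in the non-implanted library (1.42, 1.35 to 1.49). It was the leading member in mature cells, with 15.5% of ribosomal protein UMIs in the implanted library against 20.3% in the non-implanted library, up from 8.80% and 11.5% in immature cells. Rpl41 was level, at 618 and 585 CPM in the implanted library and 571 and 616 CPM in the non-implanted library. Rpl30, a large subunit protein, had 167 and 184 CPM in the implanted library against 124 and 146 CPM in the non-implanted library. The ratios of Rpl18 (log2 0.07 and 0.14) and Rplp1, a stalk protein (0.09 and 0.11), were small.

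The subunits were compared next. The median log2 ratio was -0.59 over 16 large and -0.64 over 15 small subunit members in the implanted library, and -0.36 over 19 and -0.58 over 18 in the non-implanted library. Members with under 10% of windows shared had lower medians (-0.72 over 10 and -0.66 over 11) than the rest (-0.33 over 21 and -0.34 over 26). Rps9 had 35.1% of its windows shared, and its copy RP23-179K7.3 had 26656 UMIs. Among ribosomal proteins outside the name rule, Rpl36al stood at 53.2 CPM in immature and 10.1 CPM in mature cells of the implanted library and at 46.4 and 5.34 CPM in the non-implanted library. Rps27rt went the other way, with 205 and 368 CPM in the implanted library against 184 and 335 CPM in the non-implanted library. Rpsa had 12.4 and 5.05 CPM in the implanted library against 22.1 and 3.92 CPM in the non-implanted library.

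From mature to activated cells, whose marker list includes the chemokine genes Cxcl2 and Ccl3, no member passed 2-fold either way among 22 implanted and 27 non-implanted comparisons, where 8.06% and 4.98% of all genes were 2-fold higher and 1.42% and 0.396% 2-fold lower. The members' median log2 ratios were 0.28 and 0.36, with 0.07 and 0.10 over all genes compared. The pooled share had a log2 ratio of 0.27 (0.23 to 0.32) and 0.32 (0.28 to 0.35). In the implanted library this order turned around with stricter cell limits (0.505% mature, 0.496% activated) and with 3000 variable genes and 50 components (0.548% and 0.497%). The clusters within each class also overlapped, since activated cluster 6 (0.457% and 0.485%) lay below mature cluster 2 (0.505% and 0.564%).

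Promoter sequence was at hand for 59 of the 81 members. The letters CCGGAAG, the core read by ETS family factors, stood on either strand in 24 of them, or 40.7%, within 250 bases before and 50 after a listed start, and in 9.93% of 27025 genes. CTTTCC stood in 52.5% of the members' and in 29.3% of all promoters, and TATAAA in 10.2% and 15.7%. Of the other motifs counted, CTTTTC stood in 27.1% and 24.3%, and AAGATGG in 15.25% and 7.28%. The sequences from 90 bases before to 10 bases from the start are shown from RefSeq (GRCm38.p6) for Rps18 and Rpl14, 2 of the members that were lowest in mature cells, and for Rps9 and Rpl41, 2 that were not, with CCGGAAG or its reverse complement CTTCCGG in capitals.
Rps18, chr17:33955656-33955755, minus strand: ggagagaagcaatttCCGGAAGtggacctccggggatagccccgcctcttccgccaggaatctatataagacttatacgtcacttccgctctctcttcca
Rpl14, chr9:120571427-120571526, plus strand: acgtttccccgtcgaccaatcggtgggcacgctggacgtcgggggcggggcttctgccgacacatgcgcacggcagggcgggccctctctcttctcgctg
Rps9, chr7:3703951-3704050, plus strand: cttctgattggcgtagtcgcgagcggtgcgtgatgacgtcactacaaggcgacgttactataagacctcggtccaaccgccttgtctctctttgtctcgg
Rpl41, chr10:128549159-128549258, minus strand: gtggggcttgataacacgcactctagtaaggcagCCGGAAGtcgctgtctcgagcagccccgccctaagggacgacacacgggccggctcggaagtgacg
In the 300 bases the motif stood 2 times for Rps18, 1 time for Rpl41 and 0 times for Rpl14 and Rps9. The shown stretches hold 1 of the Rps18 motifs and the Rpl41 motif.

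Between the libraries, the whole share was 0.132 percentage points higher in the implanted library (interval 0.124 to 0.140), yet nearly every named class was lower there. Of 12 named classes, promyelocyte-like cells alone had a higher pooled share in the implanted library (3.74% against 3.64%), and 11 were lower. The unnamed cells, outside this count, were also higher, at 2.97% against 2.16%, a difference of 0.809 points (0.753 to 0.865). They held 3.69% of UMIs in the implanted library against 2.62% in the non-implanted library. The median promyelocyte-like cell was at 2.96% implanted against 2.98% non-implanted. Monocyte-like cells were 0.238 points lower (0.198 to 0.278 in size), immature cells 0.0374 points lower and activated cells 0.0683 points lower. The macrophage-like difference was -0.0192 points with an interval of -0.0566 to 0.0180, which holds 0. Without cluster 19, of which 65 of 67 cells were implanted, the shares were 2.25% and 2.34%, a log2 ratio of -0.05 (-0.08 to -0.03).

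The make-up of the libraries differed beside this. Promyelocyte-like cells held 5.18% of UMIs in the implanted library against 3.39% in the non-implanted library, monocyte-like cells 9.89% and 7.55%, macrophage-like cells 8.70% and 5.06%, and mature neutrophil-like cells 9.64% and 13.8%. When every class was given its UMI weight from both libraries together, the share was 1.60% in the implanted library against 1.65% in the non-implanted library, a difference of -0.0527 points. Within the neutrophil lineage the plain shares were 0.982% and 0.907%, with common weights 0.926% and 0.951%, and without promyelocyte-like cells 0.757% and 0.780%. With common weights the sign of the whole-library and of the lineage difference was the opposite of the plain one.

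The libraries were then compared member by member. In neutrophil-lineage cells 2 of 56 members were at least 1.5-fold higher in the implanted library, with 0.834% of all genes, and 2 were lower, with 0.137%. In monocyte-like cells 8 of 45 were lower, with 0.893% of all genes, and 0 were higher, with 1.43%. In macrophage-like cells 1 of 39 was higher and 1 lower, with 10.2% and 6.94% of all genes. Without cluster 19, which is led by Mmp12, Mfge8 and Gpnmb, 2 of 36 members were higher, against 3.83% of all genes, and 2 lower, against 2.08%. Without promyelocyte-like cells, 0 of 52 members of the neutrophil lineage were higher, against 0.628% of all genes, and 6 were lower, against 0.285%.

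Of 23 members with enough UMIs in all 6 large classes, 8 were lower in the implanted library in each class, 5 were higher in each and 10 were mixed. The same count was not made over all genes, so it cannot be read as a trait of the members. The 6 classes also come from the same 2 libraries and are not independent. Rps9 was lower throughout, with log2 ratios between -0.52 and -0.42, as in monocyte-like cells with 1717 CPM against 2375 CPM. Rps2, a small subunit protein, lay between -0.91 and -0.34. Rpl30 was higher throughout, between 0.33 and 0.49, as in macrophage-like cells with 551 CPM against 390 CPM. Rplp0, the base of the stalk, lay between 0.15 and 0.35.

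Among the members named by the largest ratios, the lowest in monocyte-like cells were Rpl19, Rps16 and Rps10. Rpl19, a large subunit protein, had 141 CPM in the implanted library against 292 CPM in the non-implanted library. Rps16 had 61.8 and 129 CPM, and Rps10 had 136 and 262 CPM. The same genes were lower in neutrophil-lineage cells (log2 -0.54, -0.53 and -0.53). The lowest there were Rps27a, a fusion of ubiquitin and a small subunit protein, at 20.6 and 33.6 CPM, Rpl7a at 4.49 and 9.33 CPM, and Rps19, the gene most often mutated in Diamond-Blackfan anemia, at 13.9 and 23.0 CPM. Highest in neutrophil-lineage cells were Rpl18 at 88.1 and 52.7 CPM, Rplp2 at 147 and 89.8 CPM, and Rps28 at 33.8 and 21.03 CPM.

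Within single neutrophil stages fewer members had enough UMIs. In promyelocyte-like cells 2 of 37 members were at least 1.5-fold higher, against 2.44% of all genes, and 1 was lower, against 1.03%. Rps10 was that lower member, with 123 CPM implanted and 207 CPM non-implanted, and Rpl18 and Rpl30 were the higher ones. In cycling cells 1 of 43 was higher, against 0.697%, and 4 were lower, against 0.549%, with Rpl19 lowest at 32.7 and 61.8 CPM. In immature cells 1 of 38 was higher, against 1.29%, and 5 were lower, against 0.397%, with Rps2 lowest at 58.6 and 115 CPM. In mature cells 1 of 28 was higher, against 0.194%, and 3 were lower, against 0.388%. Rpl37 was lowest there, with 33.7 and 70.8 CPM, and Rplp2 highest, with 65.7 and 40.6 CPM. In activated cells 0 of 23 were higher, against 1.48%, and 1 was lower, against 0.715%, namely Rps2 with 62.3 and 97.7 CPM. In macrophage-like cells the lowest ratios belonged to Rps10 (98.3 and 150 CPM), Rps26 (340 and 496 CPM) and Rps9 (869 and 1252 CPM), and the highest to Rplp2 (333 and 212 CPM), Rpl18 (157 and 106 CPM) and Rpl30. The highest in monocyte-like cells were the same 3, Rpl18 at 305 and 218 CPM, Rpl30 at 807 and 605 CPM and Rplp2 at 449 and 341 CPM.

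The size of these ratios went with the sequence shared with other genes. In monocyte-like cells the median size of the log2 ratio was 0.04 over 12 members with under 10% of windows shared, 0.26 over 15 with 10% to 50%, 0.41 over 14 with 50% to 80% and 0.82 over 4 above that. In macrophage-like cells the medians were 0.13, 0.24, 0.39 and 0.57 in that order, the last over 2 members. In neutrophil-lineage cells they were 0.20, 0.25, 0.27 and 0.53, so they differed little below 80%. Over the members with under 10% shared, none passed 1.5-fold in neutrophil-lineage (0 of 13), monocyte-like (0 of 12) or macrophage-like cells (0 of 12). Of all genes, 0.834% were higher and 0.137% lower in neutrophil-lineage cells, 1.43% and 0.893% in monocyte-like cells, and 10.2% and 6.94% in macrophage-like cells. With so few members, counts of 0 lie near these shares in the neutrophil-lineage and monocyte-like cells. With the UMIs of a member's copies summed with its own, 24 of 45 monocyte-like ratios lay nearer to 0, 10 farther from it and 11 at the same value, and in neutrophil-lineage cells 24 of 56 lay nearer and 21 farther. Of 39 macrophage-like ratios, 15 lay nearer and 14 farther. With copies counted as genes of their own beside the members, 20 of 83 passed 1.5-fold in monocyte-like cells and 19 of 100 in neutrophil-lineage cells. Adding copies does not change the counts over all genes, so the shares just given apply here too. Rps16 summed with its copies had 1460 and 1786 CPM in monocyte-like cells (log2 -0.29, from -0.999), and Rpl37 had 990 and 1009 CPM (-0.03, from -0.68). For Rpl19 the ratio with copies was -0.96, from -1.02. Rpl39 crossed 0, from -0.31 to 0.48, and Rplp0 moved away from it, from 0.26 to 0.39. The part of shared sequence in these ratios was not tested.

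**Figure D4:**
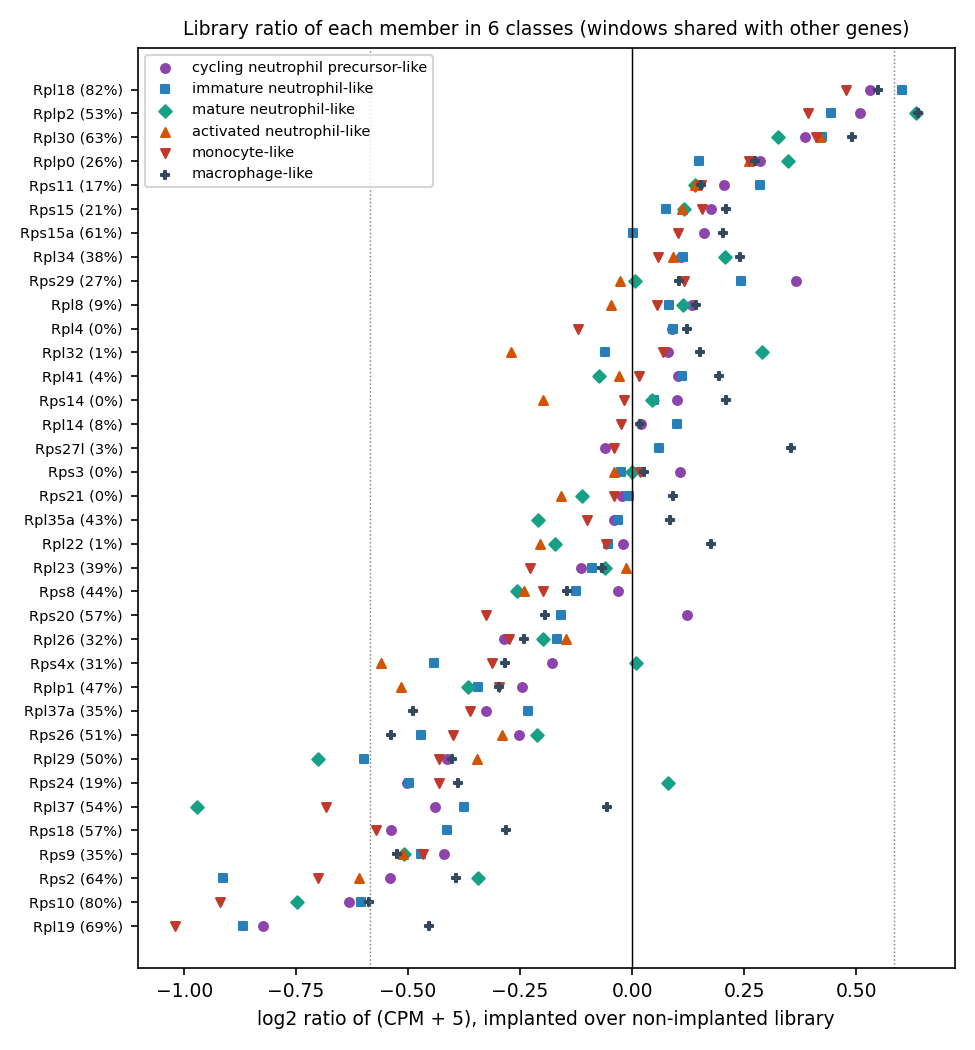
Log2 ratio of CPM plus 5, implanted over non-implanted library (x axis), for members with at least 200 UMIs in 4 or more of 6 classes, 1 row a member with its share of windows found in other genes in brackets, and 1 marker a class. Dotted lines mark 1.5-fold; Rps9, Rps2, Rps10 and Rpl19 lie left of 0 and Rpl30, Rplp2 and Rpl18 right of 0 in each class shown, while members with under 10% shared lie between -0.12 and 0.35 in monocyte-like and macrophage-like cells.

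The balance of the subunits differed with the library too. Large subunit members had 0.976 UMIs for each small subunit UMI in the implanted library against 0.870 in the non-implanted library, and the ratio was higher in the implanted library in 12 of 12 named classes. In monocyte-like cells it was 0.953 and 0.866, and in mature neutrophil-like cells 0.887 and 0.780. Rps9, the third most abundant member, was among the small subunit genes lower in the implanted library, and 35.1% of its windows were shared. The 12 classes come from the same 2 libraries and are not independent. The balance was not computed for members with little shared sequence alone, and the part of shared sequence in it was not tested.

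Other genes of protein synthesis were compared in the same way. From promyelocyte-like to cycling cells, 11 of 32 translation factors were at least 2-fold lower in the implanted library against 9 of 32 in the non-implanted library, and 7 and 4 of 30 mitochondrial ribosomal proteins were, where 8.96% and 7.17% of all genes were. From immature to mature cells the median log2 ratio was -0.19 and -0.21 over 20 and 22 translation factors, and -0.36 and -0.30 over 12 and 17 mitochondrial ribosomal proteins. Eif3c, a subunit of the initiation factor that binds the small subunit, had 71.2 CPM in immature and 30.9 CPM in mature cells of the implanted library, and 64.5 and 29.9 CPM in the non-implanted library. Eif5, which helps to select the start codon, was higher in mature cells, at 213 and 352 CPM and at 204 and 333 CPM. Eif4ebp1, an inhibitor of cap-dependent initiation under mTOR control, went from 61.6 to 159 CPM and from 63.6 to 138 CPM. It was the 1 of 5 measured growth control genes at least 2-fold higher in each library, where 17.9% and 17.7% of all genes were. Of the ribosome biogenesis list only 3 and 4 of 39 genes had enough UMIs, and none passed 2-fold. Their median log2 ratio was -0.13 implanted, with 1 above 0, and 0.50 non-implanted, with 3 above 0. Ubtf, a transcription factor of the ribosomal RNA genes, was the highest in the non-implanted library, with 27.2 and 55.5 CPM. Polr1d, a subunit of RNA polymerase I, had 88.4 and 55.0 CPM implanted and 80.9 and 58.0 CPM non-implanted. Of 7 snoRNA host genes 1 was measured, Snhg8, with 25.4 and 57.8 CPM implanted and 30.2 and 54.5 CPM non-implanted. Of the mitochondrial ribosomal proteins 2 of 12 and 2 of 17 were at least 2-fold lower, where 11% and 10.6% of all genes were, and Mrps14 was lowest, with 65.1 and 25.8 CPM implanted and 64.9 and 18.9 CPM non-implanted.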

How the data were processed

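The files hold UMI counts per gene and cell barcode. Per the file headers they were made by Cell Ranger 3.0.1; the submitters' processing notes also name Seurat and the builds mm10 and GRCm38, and the deposited counts are not normalized. The annotation release is not given in the sources used here. Depth was 18479918 UMIs in the implanted library against 20390136 in the non-implanted library after cells with under 200 genes or over 10% mitochondrial UMIs and Scrublet doublets (84 and 102 cells) were left out. A further 107 rows that name no mouse gene were not used. Cells were clustered with Scanpy 1.11.5 and leidenalg 0.10.2 (2000 variable genes, 30 components, 15 neighbours, resolution 1). The members, rows with pseudogene symbols and most ribosomal proteins outside the rule were left out of this step, but copies under other symbols were not. Clusters were named from marker lists, with the naming rule settled after the clusters were seen, and "-like" marks such names. Shares have 95% Clopper-Pearson intervals, differences Newcombe intervals and ratios exact conditional intervals. Ratios use CPM plus 5 and at least 200 UMIs in the groups compared. Fold limits were 2 between stages and 1.5 between libraries. Intervals cover counting error only. Members and lists were chosen with earlier results of these data known. The text names the 5 highest and lowest members, the 5 at either end of the mature over immature ratio, the 3 at either end of the library ratios, the paralogs with their parents and the members without UMIs, except for results that are not reported here. The procedures were tested on simulated data with known changes. Shared sequence was counted in GENCODE transcripts (release M21), and promoters came from RefSeq.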

Additional observations from a re-analysis of the deposited data

Results flagged for a closer look

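Rpl23 and Rpl41 had opposite signs in the 2 libraries for mature over immature neutrophil-like cells. Rpl23 had a log2 ratio of 0.02807 in the implanted library against -0.001954 in the non-implanted library, and Rpl41 had -0.07692 and 0.11. The difference between the libraries was not tested, and both genes lay close to 0 in either library. Groups of 1 library could not be screened for outlying samples.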

How the results depend on the processing

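Depth limited the stage comparison to 31 implanted and 37 non-implanted members. No paired analysis was possible because each group had 1 library and the replicate numbers come from accession order. For the same reason no replicate could be left out. The alternatives with copies, Rpsa, members with little shared sequence, score-only names, no cluster 19 and no promyelocyte-like cells were chosen after seeing the data. Pseudogenes and copies enter the counts below as genes of their own. Only the runs without cluster 19 or without promyelocyte-like cells were also counted over all genes, as given above. The sign of the library difference and of both mature over immature ratios held in all 19 alternatives, while the counts of members past a fold moved most, and the cause was not tested. None of these alternatives gave the classes common weights, with which the library difference was -0.0527 points, as given above.

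The library difference of 0.132 points became 0.124 without the cell filter, 0.142 with 500 genes and 5% mitochondrial UMIs as limits, 0.0617 without the 20 most abundant other genes in the total, 0.0823 with equal cell weights and 0.0676 with cells thinned to 1000 UMIs (103 and 69 shallower cells left out). It was 0.152 with ribosomal proteins outside the rule, 0.213 with copies, 0.121 with members under 10% shared, 0.104 without cluster 19 and 0.0935 without promyelocyte-like cells.

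The implanted log2 ratio of mature over immature cells was -0.27 with no doublets removed, -0.14 with 2 times as many removed, -0.25 with no cell filter, -0.54 with members used for clustering, -0.26 with 3000 genes and 50 components and -0.49 at resolution 2. It was -0.75 without the 20 top genes, -0.19 with equal weights, -0.22 thinned, -0.23 with copies, -0.53 with members under 10% shared and -0.29 with score-only names. In the non-implanted library the corresponding ratio was -0.39 with no doublets removed, -0.20 with 2 times as many, -0.26 with no filter, -0.44 with stricter limits, -0.57 with members in the clustering and -0.44 at resolution 2. It was -0.74 without the top genes, -0.15 with equal weights, -0.12 thinned, -0.22 with copies, -0.48 with members under 10% shared and -0.38 with score-only names.

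The 6 implanted members at least 2-fold lower in mature cells became 3 with no doublets removed, 2 with 2 times as many, 11 with members in the clustering, 3 with 3000 genes, 3 with separate clustering, 16 without the top genes, 3 with equal weights, 1 thinned, 1 with a pseudocount of 20, 10 with copies and 3 with members under 10% shared. The 7 non-implanted members became 4 with 2 times as many doublets, 11 with stricter limits, 14 with members in the clustering, 17 without the top genes, 4 with equal weights, 2 thinned, 11 with pseudogene rows, 4 with a pseudocount of 20, 12 with copies and 3 with members under 10% shared.

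The ratio of the highest to the lowest class share was, in the implanted library, 6.58 with no doublets removed, 8.89 with 2 times as many, 7.55 with no filter, 9.01 with stricter limits, 8.88 with 3000 genes, 8.41 at resolution 2, 5.51 without the top genes, 7.16 with equal weights, 7.23 thinned, 6.87 with copies, 9.01 with members under 10% shared and 8.55 with score-only names. In the non-implanted library it was 6.91, 8.96, 7.31, 8.67, 8.79, 8.20, 5.36, 7.03, 6.78, 6.87, 8.83 and 8.73 in that order, and 7.76 with ribosomal proteins outside the rule. Among classes with at least 100 cells, monocyte-like cells were highest each time. Macrophage-like cells of the non-implanted library had a higher share with no doublets removed, with 3000 genes and with separate clustering, in a class of fewer than 100 cells. The lowest class was the mature or, where a cluster took that name, the transitional neutrophil-like cells.

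The 4 members past 1.5-fold between the libraries in neutrophil-lineage cells became 8 without the top genes, 13 with pseudogene rows, 9 with a pseudocount of 1, 1 with a pseudocount of 20, 19 with copies and 0 with members under 10% shared. The 8 in monocyte-like cells became 1 thinned, 16 with pseudogene rows, 13 with 20 UMIs as the minimum, 20 with copies and 0 with members under 10% shared. The 2 in macrophage-like cells became 12 with no doublets removed, 9 with 2 times as many, 7 with stricter limits, 1 with members in the clustering, 12 with 3000 genes, 13 with separate clustering and 4 with equal weights. They became 1 thinned, 9 with pseudogene rows, 1 with a pseudocount of 20, 12 with 20 UMIs, 13 with copies, 0 with members under 10% shared and 4 without cluster 19.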
